A study of Mus musculus with 12 samples.

Results

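The Wnt pathway genes described here are the secreted Wnt ligands, their Frizzled (Fzd), Lrp5, Lrp6 and Lgr receptors, the secreted modulators of the Sfrp, Dkk and Rspo families, beta-catenin (Ctnnb1) with Apc, Axin1, Axin2 and Gsk3b of its destruction complex, and the TCF/LEF transcription factors. They were chosen by gene name, without use of their values but with earlier results of these data known. They number 55 of the 40597 loci in the expression table. Of these, 27 had a mean of at least 1 FPKM over all libraries and were tested, among 14931 loci in all that reached that level. FPKM count fragments per transcript length and library size, so levels can be set side by side between genes.

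RNA was measured in primary neurospheres, floating clusters of neural stem and progenitor cells, grown from the fetal hypothalamus of C57Bl/6 mice at embryonic day 14.5. At the third passage the cultures were exposed for 4 hours to dexamethasone, a synthetic glucocorticoid, at 100 nM, or to ethanol, its vehicle. The 4 groups were male cultures under dexamethasone, male cultures under vehicle, female cultures under dexamethasone and female cultures under vehicle, each with 3 biological replicates and 1 library per replicate. All were wild type, and the sources used here do not say whether fetuses were pooled or what made replicates separate, so p-values measure the spread between these libraries, which may in part be technical.

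In canonical Wnt signalling, a Wnt ligand binds a Frizzled receptor together with Lrp5 or Lrp6, the destruction complex of Axin, Apc and Gsk3b is held back, and beta-catenin accumulates and acts in the nucleus through TCF/LEF factors. Sfrp and Dkk proteins restrain the pathway outside the cell, while R-spondins and their Lgr receptors strengthen it. Wnt signalling patterns the developing forebrain and bears on the balance between renewal and differentiation of neural progenitors, and its activity is low where the anterior hypothalamus forms.

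The libraries held 13755 to 14826 loci at 1 FPKM or more, and the summed FPKM of protein-coding loci was 397412 to 453923. FPKM carry no counts, so absolute depth is unknown. The value of 1 fragment, estimated from steps between low values, differed by up to 1.61-fold between libraries, with male dexamethasone library 1 the shallowest. Loci with no gene name took 75.0% of all FPKM in male vehicle library 3 and 53.1% in male dexamethasone library 2. The Xist locus read 136 FPKM or more in every female library. Among male libraries it read 14.1 FPKM in dexamethasone library 2 and 3.04 FPKM in vehicle library 2, which thus stood apart from the other 4 male libraries at no more than 0.0466 FPKM. The Y-linked gene Ddx3y read 16.6 FPKM or more in every male library and at most 0.0397 FPKM in female ones. All 12 neural stem and radial glia markers examined were at 1 FPKM or more, among them Fabp7 at a mean of 3503 FPKM and Sox2 at 106 FPKM, as were 8 of 8 astrocytic, 7 of 9 oligodendrocyte lineage, 6 of 12 neuronal, 3 of 6 ependymal and choroid plexus, 1 of 9 telencephalic, 1 of 7 endothelial, 1 of 8 mural and fibroblast and 0 of 9 microglial markers. Of 21 hypothalamic patterning markers 4 passed that level, Six3 at 26.5 FPKM, Lhx2 at 2.18 FPKM, Foxb1 at 1.55 FPKM and Sf1, a symbol that in mouse names a splicing factor. Nkx2-1 and Rax, which define much of the hypothalamic primordium, averaged 0.0460 and 0.00333 FPKM, so most markers of the labelled region were near 0. The established glucocorticoid targets Fkbp5, Tsc22d3, Klf9, Per1 and Zbtb16 all rose in both sexes. Fkbp5, for example, averaged 113 ± 24.3 FPKM under dexamethasone and 20.3 ± 3.96 FPKM under vehicle (SD, n = 6 each).

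Fzd10, a receptor gene, rose under dexamethasone. A gene counted as called when its adjusted p was under 0.05 in limma, a linear model over all tested loci with Benjamini-Hochberg adjustment, on log2(FPKM + 1) values. Averaged over the sexes, 1 of the 27 tested members was called, Fzd10. Over all tested loci, 1.53% were called in that comparison. At an unadjusted p under 0.05 there were 12 members, 2 higher and 10 lower under dexamethasone, against 13.6% of all tested loci. The log2 fold changes of 22 of the 27 members were negative, with a median of -0.20, while the median over all tested loci was -0.01 and 51.5% of them were below 0. This skew and the count of 12 are descriptions only, since the members share samples. Wnt3 and Sfrp4, both among the 12, reached the mean of 1 FPKM through the group in which they were high. With the replicate number as a block, an alternative described at the end, 8 members were called, against 5.38% of all tested loci. Fzd10, Wnt3 and Fzd1 were higher there, and Wnt7a, Wnt7b, Fzd9, Wnt5a and Apc lower. The labels do not tie equal numbers to a shared culture, so that fit is not the main one. In bulk samples such as these, fewer cells of a type and less RNA per cell cannot be told apart.

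Most ligands lay under the level for testing. Of 19 Wnt genes, Wnt7b at a mean of 33.9 FPKM, Wnt7a at 15.4 FPKM, Wnt5a at 11.5 FPKM and Wnt3 at 1.50 FPKM passed the level for testing, and 15 did not. Among receptors, 9 of 10 Frizzled genes, both Lrp genes and Lgr4 and Lgr5 passed. Only 2 of 12 secreted modulators did, Sfrp2 and Sfrp4, while no Dkk or Rspo gene reached the level. All 5 genes of beta-catenin and its destruction complex passed, and 3 of 4 TCF/LEF genes. Just inside the level lay Tcf7 at 1.11 FPKM, Sfrp4 at 1.20 FPKM and Wnt3 at 1.50 FPKM, and just outside it Wnt5b at 0.708 FPKM, Dkk3 at 0.654 FPKM and Sfrp1 at 0.544 FPKM. The plot of levels shows that the 28 untested members lay mostly far below the line: 18 of them averaged under 0.1 FPKM, and Wnt3a was listed at 0 in all 12 libraries. Dkk3, a member of the Dkk family, read 1.93 FPKM in female dexamethasone library 2 and 3.04 FPKM, the highest value of any untested member, in female vehicle library 2, against at most 0.407 FPKM in the other 10 libraries.

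**Figure D1:**
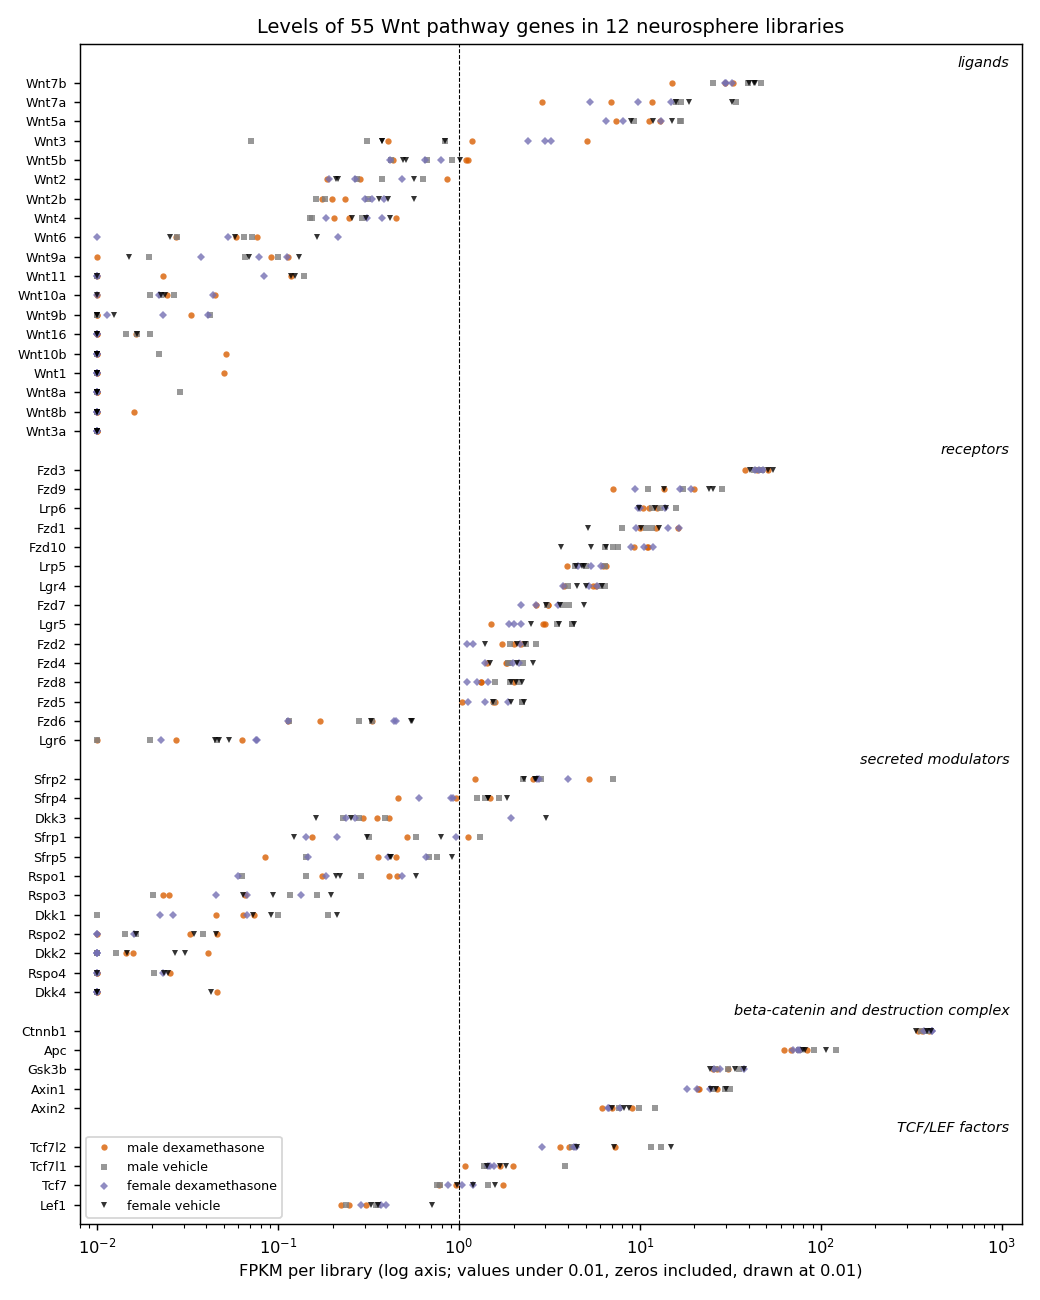
FPKM of each of the 55 members in each of the 12 libraries on a log axis, 1 point per library, grouped by role and ordered by mean, with values under 0.01 drawn at 0.01 and the dashed line at the mean level needed for testing. Most ligands and nearly all secreted modulators lie left of 1 FPKM, while the Frizzled receptors other than Fzd6 and the destruction complex lie right of it.

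Fzd10 encodes a Frizzled receptor for Wnt ligands and lies on chromosome 5 at 128600844-128604093 on the plus strand of GRCm38, in a locus with no other annotated gene. Its promoter window is shown because Fzd10 was the called member. RefSeq promoter windows on GRCm38.p6, 250 bases before to 50 after the annotated start, were at hand for 36 of the 55 members. That of Fzd10, chr5:128600856-128601155 on the plus strand, is printed 5′ to 3′ with every CpG, the dinucleotide that can be methylated, in capitals.
Fzd10: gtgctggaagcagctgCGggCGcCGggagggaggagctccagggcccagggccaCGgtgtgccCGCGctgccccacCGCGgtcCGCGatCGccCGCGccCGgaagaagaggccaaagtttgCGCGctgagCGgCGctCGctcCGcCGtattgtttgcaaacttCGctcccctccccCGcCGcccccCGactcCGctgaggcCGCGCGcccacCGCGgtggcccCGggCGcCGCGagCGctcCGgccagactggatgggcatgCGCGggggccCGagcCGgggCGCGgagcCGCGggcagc
This window held 45 CpG, against a median of 26 over the 45 windows of members and of 7 over all 32851 windows.

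Fzd10 read 10.9, 9.27 and 11.1 FPKM in male dexamethasone libraries against 7.59, 6.43 and 7.10 FPKM in male vehicle libraries, and 8.93, 10.6 and 11.7 FPKM in female dexamethasone libraries against 3.66, 5.35 and 6.46 FPKM in female vehicle libraries. Every dexamethasone library was above every vehicle library, in each sex and over both, and the 2 lowest values were those of female vehicle libraries 1 and 2. Fzd10 averaged 10.4 ± 1.09 FPKM under dexamethasone and 6.10 ± 1.41 FPKM under vehicle (SD, n = 6 each), for a log2 fold change of 0.71 with SE 0.12 (limma adjusted p = 0.0160). In female cultures alone the log2 fold change was 0.91 (SE 0.17, adjusted p = 0.0538) and in male cultures 0.50 (SE 0.17, adjusted p = 0.507), so neither sex passed alone. The call ended when male vehicle library 2 was left out (adjusted p = 0.0516), when both male libraries with Xist signal, dexamethasone 2 and vehicle 2, were left out (log2 fold change 0.72, adjusted p = 0.0913), and when both libraries with most unnamed FPKM, male vehicle 3 and male dexamethasone 2, were left out together (adjusted p = 0.0782).

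Wnt7a, a ligand of ventricular zone progenitors, stands on chromosome 6 at 91363981-91411363, minus strand. Together with Fzd10 it was the member whose dexamethasone and vehicle libraries did not overlap over both sexes, and its promoter window is shown for that reason, chr6:91411304-91411603, read along the minus strand with CpG in capitals.
Wnt7a: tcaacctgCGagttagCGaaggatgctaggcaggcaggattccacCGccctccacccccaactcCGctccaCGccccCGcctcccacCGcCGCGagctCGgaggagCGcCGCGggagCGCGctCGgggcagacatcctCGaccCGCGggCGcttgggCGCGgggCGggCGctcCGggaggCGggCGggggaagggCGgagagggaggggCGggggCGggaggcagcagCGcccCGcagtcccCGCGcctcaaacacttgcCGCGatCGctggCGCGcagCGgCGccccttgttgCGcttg
It held 42 CpG. Wnt7a read 2.86, 6.92 and 11.7 FPKM in male dexamethasone libraries against 15.7, 16.8 and 34.0 FPKM in male vehicle libraries, and 5.27, 14.8 and 9.79 FPKM in female dexamethasone libraries against 18.7, 32.4 and 15.8 FPKM in female vehicle libraries. Every dexamethasone library was below every vehicle library, although values within each group spread widely, by 2.16-fold over the vehicle libraries. Wnt7a averaged 8.56 ± 4.39 FPKM under dexamethasone and 22.2 ± 8.56 FPKM under vehicle (SD, n = 6 each), a log2 fold change of -1.35 (SE 0.35), and the limma adjusted p of 0.121 missed the threshold. The share of all tested loci whose 6 dexamethasone and 6 vehicle libraries did not overlap was 2.22%, against 2 of 27 members, Fzd10 above and Wnt7a below.

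Wnt3, a canonical ligand on chromosome 11 at 103774150-103817957, plus strand, had the largest positive estimate among the tested members. It reached the mean of 1 FPKM only through its dexamethasone libraries, so its rank and its test depend on the group in which it was high. Its window, chr11:103773925-103774224 on the plus strand, is printed for comparison with the other ligand and held 24 CpG, in capitals.
Wnt3: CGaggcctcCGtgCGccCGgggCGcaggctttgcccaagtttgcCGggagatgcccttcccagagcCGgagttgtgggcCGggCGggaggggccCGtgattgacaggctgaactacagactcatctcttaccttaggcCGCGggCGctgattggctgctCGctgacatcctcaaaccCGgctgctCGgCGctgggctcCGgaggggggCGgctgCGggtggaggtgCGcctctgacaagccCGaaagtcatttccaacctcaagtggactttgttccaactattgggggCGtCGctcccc
Wnt3 read 5.07, 0.405 and 1.18 FPKM in male dexamethasone libraries against 0.836, 0.0712 and 0.309 FPKM in male vehicle libraries, and 2.98, 3.22 and 2.39 FPKM in female dexamethasone libraries against 0.372, 0.839 and 0.375 FPKM in female vehicle libraries. The female groups were well apart, with every dexamethasone library above every vehicle library, while in males the dexamethasone libraries ranged from below 1 vehicle library to the highest value of the gene. Wnt3 averaged 2.54 ± 1.64 FPKM under dexamethasone and 0.467 ± 0.308 FPKM under vehicle (SD, n = 6 each), and its log2 fold change of 1.15 (SE 0.32) did not pass the test (adjusted p = 0.154). Since vehicle libraries lay below 1 FPKM, the added 1 on the log scale understates this difference.

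Wnt7b, the most abundant ligand and a near relative of Wnt7a, read 29.6, 32.8 and 14.9 FPKM in male dexamethasone libraries against 39.7, 46.7 and 25.4 FPKM in male vehicle libraries, and 32.2, 29.7 and 29.6 FPKM in female dexamethasone libraries against 43.3, 42.8 and 39.8 FPKM in female vehicle libraries. The female groups did not overlap and dexamethasone was the lower, while male vehicle library 3 lay below 2 of the male dexamethasone libraries. Between same-numbered libraries of a sex, dexamethasone was the lower throughout, as it was for Wnt7a, Sfrp4, Apc and Tcf7l2. The share of all tested loci with such agreement was not counted, and the labels do not tie equal numbers to a shared culture. Wnt7b averaged 28.1 ± 6.62 FPKM under dexamethasone and 39.6 ± 7.43 FPKM under vehicle (SD, n = 6 each) (log2 fold change -0.50, SE 0.20, adjusted p = 0.310). Wnt5a, best known as a ligand of non-canonical Wnt signalling, read 7.39, 11.3 and 12.8 FPKM in male dexamethasone libraries against 9.24, 16.8 and 16.7 FPKM in male vehicle libraries, and 6.45, 8.10 and 13.1 FPKM in female dexamethasone libraries against 8.88, 11.8 and 15.0 FPKM in female vehicle libraries. Its groups overlapped in both sexes. The averages for Wnt5a were 9.86 ± 2.91 FPKM under dexamethasone and 13.1 ± 3.59 FPKM under vehicle, with a log2 fold change of -0.38 (adjusted p = 0.485). As for Wnt7b, each dexamethasone library was below the vehicle library of its sex and replicate number. Over the 4 tested ligands the median log2 fold change was -0.44, with 3 negative and 1 positive, and none was called.

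**Figure D2:**
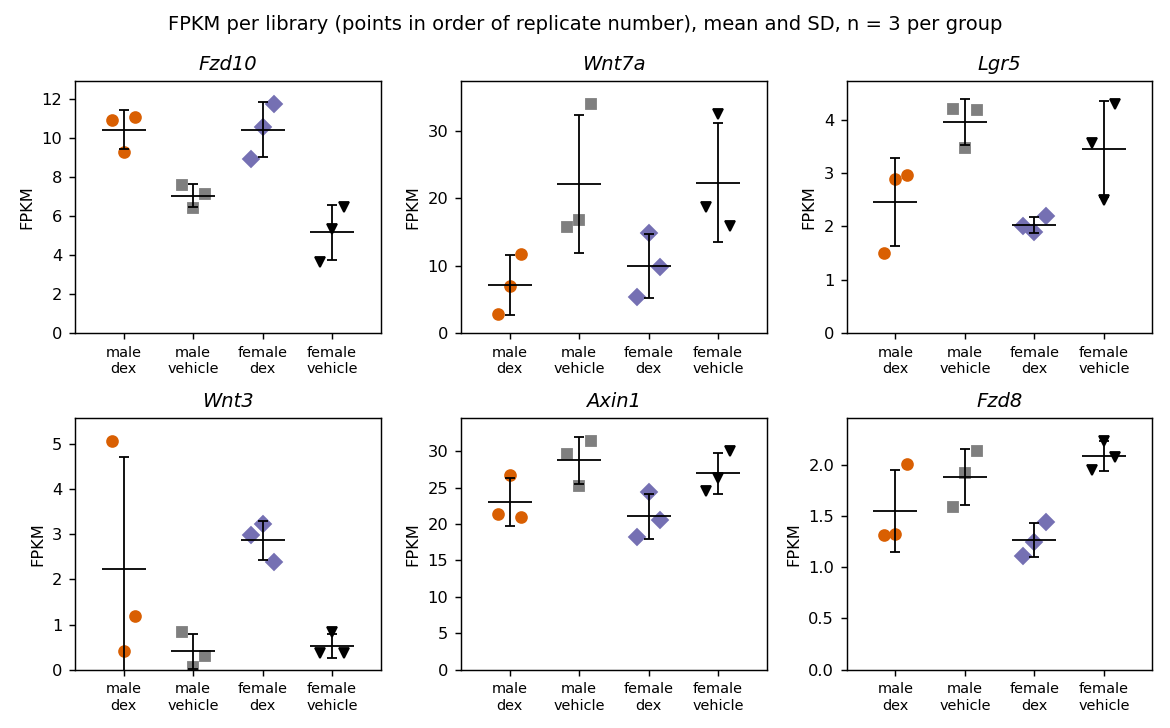
FPKM per library of Fzd10 and of the 5 members next to it in order of p, with points from left to right in order of replicate number, horizontal lines at the group mean and bars of 1 SD (n = 3 per group), the lower bar of Wnt3 in males under dexamethasone ending at 0. Fzd10 under dexamethasone lies above vehicle in both sexes and Wnt7a below it, while the other 4 genes overlap in at least 1 sex or between the sexes.

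Among receptors, Lgr5, which binds R-spondins and marks stem cells in several epithelia, is on chromosome 10 at 115450311-115587780, minus strand. Lgr5 read 1.51, 2.89 and 2.97 FPKM in male dexamethasone libraries against 4.21, 3.46 and 4.19 FPKM in male vehicle libraries, and 2.00, 1.89 and 2.19 FPKM in female dexamethasone libraries against 3.57, 2.50 and 4.30 FPKM in female vehicle libraries. Dexamethasone was below vehicle in each sex without overlap, although 2 male dexamethasone libraries were above female vehicle library 2. Lgr5 averaged 2.24 ± 0.579 FPKM under dexamethasone and 3.71 ± 0.690 FPKM under vehicle (SD, n = 6 each), with nearly the same estimate in female cultures (-0.54) and male cultures (-0.55) and an averaged log2 fold change of -0.54 (SE 0.14, adjusted p = 0.131). Its locus also covers the protein-coding gene A930009A15Rik on the opposite strand. The libraries were stranded, but no source used here gives the strand option of the processing, so the Lgr5 level is uncertain.

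Fzd8, a Frizzled receptor of the developing forebrain, read 1.32, 1.32 and 2.00 FPKM in male dexamethasone libraries against 1.59, 1.92 and 2.13 FPKM in male vehicle libraries, and 1.11, 1.25 and 1.44 FPKM in female dexamethasone libraries against 1.95, 2.23 and 2.07 FPKM in female vehicle libraries. The female groups did not overlap, with dexamethasone the lower, and the male groups did. Its averages were 1.41 ± 0.312 FPKM under dexamethasone and 1.98 ± 0.226 FPKM under vehicle, for a log2 fold change of -0.31 with SE 0.11 (adjusted p = 0.250). Fzd7, another receptor of the family, read 3.09, 2.67 and 3.09 FPKM in male dexamethasone libraries against 3.07, 3.73 and 4.03 FPKM in male vehicle libraries, and 2.66, 2.19 and 3.51 FPKM in female dexamethasone libraries against 3.02, 4.91 and 3.60 FPKM in female vehicle libraries. Its groups overlapped in both sexes (log2 fold change -0.29, adjusted p = 0.346). Fzd5, the Frizzled gene known for its part in eye field and ventral forebrain development, read 1.04, 1.54 and 1.58 FPKM in male dexamethasone libraries against 1.56, 2.23 and 2.23 FPKM in male vehicle libraries, and 1.39, 1.12 and 1.85 FPKM in female dexamethasone libraries against 1.94, 1.53 and 2.27 FPKM in female vehicle libraries. Here too the groups overlapped in both sexes (log2 fold change -0.29, adjusted p = 0.363).

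Fzd9, a receptor found in neural precursors, read 19.9, 7.10 and 13.7 FPKM in male dexamethasone libraries against 28.2, 11.0 and 17.2 FPKM in male vehicle libraries, and 19.1, 16.7 and 9.33 FPKM in female dexamethasone libraries against 25.3, 23.9 and 13.7 FPKM in female vehicle libraries. Its spread within groups was wide and the groups overlapped (log2 fold change -0.46, adjusted p = 0.541). Between libraries of the same replicate number, dexamethasone was the lower every time in both sexes, as for the receptors Lgr5, Fzd8, Fzd5 and Fzd4. How common such agreement was over all tested loci was not counted. Fzd1, a receptor gene whose estimate was positive, read 10.0, 16.2 and 12.2 FPKM in male dexamethasone libraries against 7.96, 11.6 and 10.8 FPKM in male vehicle libraries, and 16.4, 9.50 and 14.3 FPKM in female dexamethasone libraries against 12.8, 5.19 and 10.1 FPKM in female vehicle libraries. Its groups overlapped in both sexes, and female vehicle library 2 was the lowest of all 12 (log2 fold change 0.41, adjusted p = 0.433). Between same-numbered libraries of a sex, Fzd1 was always higher under dexamethasone, as were Wnt3 and Fzd10. Fzd3, the most abundant Frizzled gene and one with roles in axon growth and planar polarity, read 44.3, 51.2 and 37.9 FPKM in male dexamethasone libraries against 47.3, 45.4 and 42.8 FPKM in male vehicle libraries, and 43.1, 45.7 and 48.1 FPKM in female dexamethasone libraries against 50.8, 40.4 and 54.6 FPKM in female vehicle libraries. No ordering by treatment was visible for Fzd3, whose averages were 45.1 ± 4.56 FPKM under dexamethasone and 46.9 ± 5.22 FPKM under vehicle (log2 fold change -0.05, adjusted p = 0.823).

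Over the 13 tested receptors the median log2 fold change was -0.16, with 10 negative and 3 positive. Those not yet given were Lrp6, the main canonical coreceptor, at 12.0 FPKM (log2 fold change -0.16), its relative Lrp5 at 5.21 FPKM (0.09), the R-spondin receptor Lgr4 at 5.16 FPKM (-0.09), Fzd2 at 1.93 FPKM (-0.20) and Fzd4 at 1.90 FPKM (-0.12). None of these 5 estimates had an adjusted p under 0.5. Fzd4 did not overlap between the 3 male dexamethasone and 3 male vehicle libraries, with dexamethasone the lower, and overlapped in females.

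Secreted modulators were represented by Sfrp4 and Sfrp2, which bind Wnt ligands outside the cell. Sfrp4 read 0.965, 0.457 and 1.48 FPKM in male dexamethasone libraries against 1.39, 1.25 and 1.66 FPKM in male vehicle libraries, and 0.929, 0.906 and 0.601 FPKM in female dexamethasone libraries against 1.44, 1.45 and 1.84 FPKM in female vehicle libraries. In females every dexamethasone library was below every vehicle library, and in males library 3 under dexamethasone was above 2 vehicle libraries (averaged log2 fold change -0.42, SE 0.15, adjusted p = 0.263). Sfrp4 reached the mean of 1 FPKM only through its vehicle libraries, the group in which it was high. Sfrp2 read 1.23, 2.56 and 5.21 FPKM in male dexamethasone libraries against 2.25, 2.82 and 7.09 FPKM in male vehicle libraries, and 2.68, 4.02 and 2.76 FPKM in female dexamethasone libraries against 2.67, 2.64 and 2.28 FPKM in female vehicle libraries. The male groups overlapped widely, while the lowest female dexamethasone library was just above the highest female vehicle library. Its averaged log2 fold change of -0.06 (adjusted p = 0.946) turned positive when male dexamethasone library 1 or male vehicle library 3 was left out (0.12 and 0.14).

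In the destruction complex, Axin1, the scaffold on which the complex forms, read 21.3, 26.8 and 21.0 FPKM in male dexamethasone libraries against 29.7, 25.2 and 31.4 FPKM in male vehicle libraries, and 18.2, 24.3 and 20.6 FPKM in female dexamethasone libraries against 24.6, 26.3 and 30.0 FPKM in female vehicle libraries. The female groups did not overlap, with dexamethasone the lower, and male dexamethasone library 2 was above male vehicle library 2. Axin1 averaged 22.0 ± 3.04 FPKM under dexamethasone and 27.9 ± 2.87 FPKM under vehicle (SD, n = 6 each), for a log2 fold change of -0.33 with SE 0.10 (adjusted p = 0.177). Apc, the other large scaffold of the complex, read 62.3, 68.5 and 84.1 FPKM in male dexamethasone libraries against 75.2, 91.5 and 122 FPKM in male vehicle libraries, and 74.3, 69.7 and 76.5 FPKM in female dexamethasone libraries against 79.4, 81.2 and 107 FPKM in female vehicle libraries. In females dexamethasone was below vehicle without overlap, whereas male dexamethasone library 3 was above male vehicle library 1 (log2 fold change -0.33, SE 0.13, adjusted p = 0.302). Ctnnb1, which encodes beta-catenin, read 397, 364 and 345 FPKM in male dexamethasone libraries against 359, 391 and 388 FPKM in male vehicle libraries, and 373, 412 and 414 FPKM in female dexamethasone libraries against 336, 408 and 386 FPKM in female vehicle libraries. Its groups overlapped in both sexes. It was the most abundant and among the steadiest members, with a ratio of 1.22 between its highest and lowest vehicle library, and its log2 fold change was 0.02 (SE 0.07, adjusted p = 0.911). Its sign flips under quantile normalization (-0.15). The Ctnnb1 locus spans 352743 bases and takes in Ulk4 on the opposite strand. The libraries were stranded but the strand option of the processing is not given, so the Ctnnb1 level is uncertain.

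The kinase gene Gsk3b averaged 29.0 ± 4.71 FPKM under dexamethasone and 31.2 ± 5.13 FPKM under vehicle (log2 fold change -0.10). Axin2, both a scaffold and a much used readout of canonical Wnt activity, averaged 7.21 ± 1.03 FPKM under dexamethasone and 8.91 ± 1.82 FPKM under vehicle, for a log2 fold change of -0.26 with SE 0.12 (adjusted p = 0.372). Over the 5 genes the median log2 fold change was -0.26, with 4 negative, and 0 were called.

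Tcf7l2, a TCF factor active in the caudal forebrain, read 4.04, 3.63 and 7.27 FPKM in male dexamethasone libraries against 11.5, 4.19 and 13.0 FPKM in male vehicle libraries, and 2.86, 4.32 and 4.42 FPKM in female dexamethasone libraries against 4.49, 14.9 and 7.22 FPKM in female vehicle libraries. In females the highest dexamethasone library lay just under the lowest vehicle library, and in males dexamethasone library 3 was above vehicle library 2. Tcf7l2 averaged 4.42 ± 1.50 FPKM under dexamethasone and 9.22 ± 4.55 FPKM under vehicle (SD, n = 6 each), and its log2 fold change of -0.82 (SE 0.32) had an adjusted p of 0.306. Tcf7l1, a factor that mostly represses, averaged 1.74 FPKM (log2 fold change -0.16), and Tcf7 averaged 1.11 FPKM (-0.02). The Tcf7 locus spans 7 other protein-coding genes, 3 of them on its strand. Ppp2ca, among the 7, had a row of its own at a mean of 125 FPKM. Whether the Tcf7 value holds fragments of the other genes is not known, so the Tcf7 level is uncertain. Lef1 averaged 0.346 FPKM and was not tested.

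**Figure D3:**
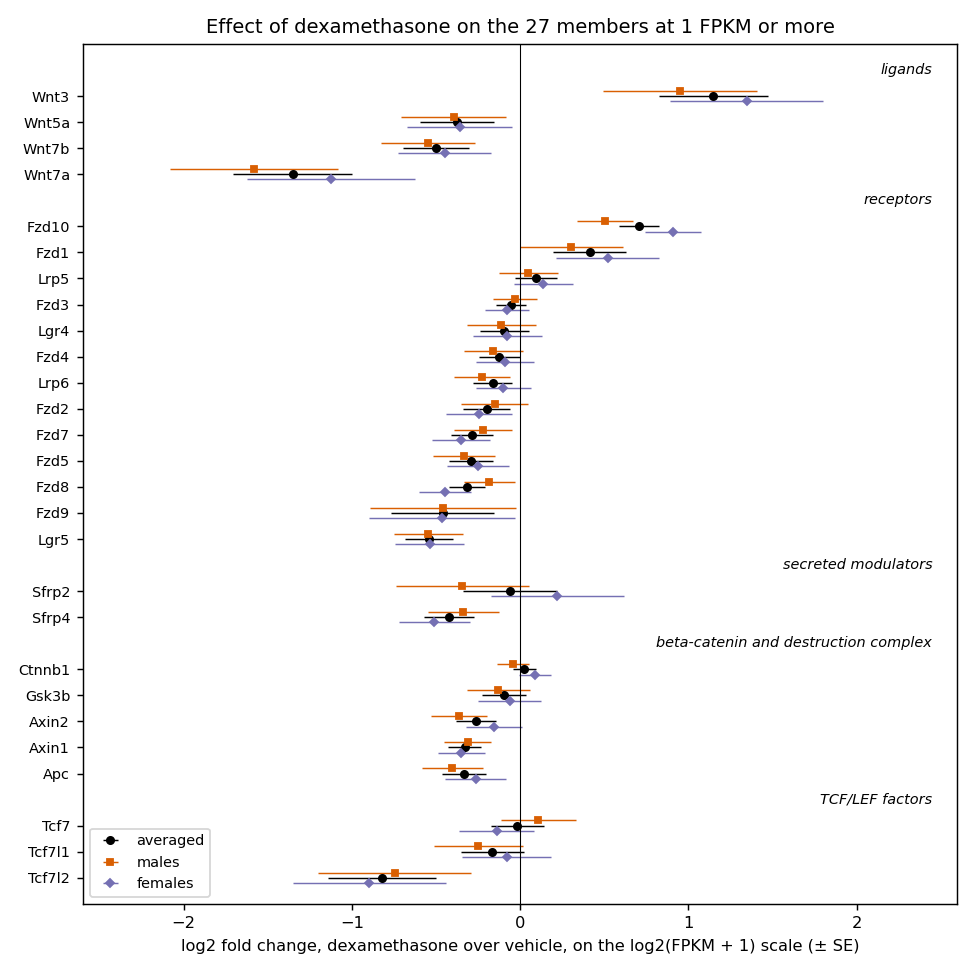
Log2 fold change, dexamethasone over vehicle, of the 27 tested members on the log2(FPKM + 1) scale with bars of 1 SE, for both sexes averaged (black), males (orange squares) and females (purple diamonds), ordered within each role. Points left of 0 are lower under dexamethasone: 22 of the 27 averaged estimates are, and Wnt3, Fzd10 and Fzd1 lie farthest to the right.

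The members differed widely in how steady they were without dexamethasone. Between the highest and lowest of the 6 vehicle libraries the ratio was 11.8 for Wnt3, 3.56 for Tcf7l2, 3.15 for Sfrp2 and 2.81 for Tcf7l1, against 1.22 for Ctnnb1, 1.28 for Axin1 and 1.35 for Fzd3.

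Within each sex no member was called. In male cultures 0 of 27 members passed, with 0.315% of all tested loci called, and 4 members had an unadjusted p under 0.05, 1 higher and 3 lower, against 6.38% of loci. The male median log2 fold change was -0.23 and the smallest adjusted p was 0.473. That median was -0.12 without male vehicle library 3 and -0.29 without male vehicle library 1. In female cultures 0 of 27 passed, with 0.482% of loci called, and 7 members had an unadjusted p under 0.05, 2 higher and 5 lower, against 8.02% of loci. The female median was -0.16. The 3 male dexamethasone and 3 male vehicle libraries did not overlap for 4 members, Fzd10 above and Lgr5, Wnt7a and Fzd4 below, against 11.9% of all tested loci. The female libraries did not overlap for 11 members, Fzd10, Wnt3 and Sfrp2 above and Lgr5, Sfrp4, Wnt7b, Axin1, Fzd8, Apc, Tcf7l2 and Wnt7a below, against 12.8% of loci.

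Whether the sexes differed in response was tested as an interaction, the female effect minus the male effect. It was called for 0 of 27 members and for 0.0335% of all tested loci, and 0 members had an unadjusted p under 0.05, against 1.47% of loci. For Fzd10 the interaction was 0.40 (SE 0.24, adjusted p = 1.00) and for Sfrp2, the largest positive one, 0.57 (SE 0.56). Under vehicle, female and male libraries differed for 0 of 27 members, with 0.0737% of loci called, and 1 member, Fzd10, had an unadjusted p under 0.05, against 4.88% of loci. Fzd10 averaged 5.16 ± 1.41 FPKM in female vehicle cultures and 7.04 ± 0.586 FPKM in male vehicle cultures (SD, n = 3 each), a log2 difference of -0.41, female minus male, with an adjusted p of 0.892.

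Other genes of the pathway, in lists set by function with earlier results of these data known, showed 1 call in the averaged effect. Ndp, which encodes norrin, a Frizzled4 ligand outside the Wnt family, fell: it averaged 3.79 ± 0.332 FPKM under dexamethasone and 5.47 ± 0.413 FPKM under vehicle (SD, n = 6 each), for a log2 fold change of -0.43 with SE 0.07 (adjusted p = 0.0173). Its highest dexamethasone library, at 4.23 FPKM, was below its lowest vehicle library, at 5.05 FPKM. The Ndp call was lost without the filter on low values (adjusted p = 0.0564), without male vehicle library 2 (0.0587), female dexamethasone library 1 (0.0546) or female vehicle library 3 (0.0521), without both male libraries with Xist signal (0.0913), and without the 2 libraries rich in unnamed FPKM (0.0778). Ndp was the only call among 9 tested of 17 secreted or surface modulators in the table, whose median log2 fold change was -0.10 and of which 6 were negative. The most abundant there were Igfbp4, a growth factor carrier that also restrains Wnt receptors, at 38.1 ± 14.9 FPKM under dexamethasone and 41.4 ± 18.8 FPKM under vehicle, and the Dkk receptor Kremen1 at 8.93 ± 0.841 FPKM under dexamethasone and 8.09 ± 0.856 FPKM under vehicle.

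Of 6 genes for Wnt secretion 4 were tested, none was called and the median log2 fold change was -0.13. Wls, the carrier that takes Wnt proteins to the cell surface, averaged 50.6 ± 21.4 FPKM under dexamethasone and 55.2 ± 22.4 FPKM under vehicle, and Porcn, the enzyme that adds their lipid, averaged 4.01 ± 0.724 FPKM under dexamethasone and 4.13 ± 1.00 FPKM under vehicle. Cytoplasmic transducers, 23 genes at 24 tested loci, held 0 calls with a median of -0.06. Their most abundant members were the kinase gene Csnk1a1 at 182 ± 8.23 FPKM under dexamethasone and 169 ± 8.26 FPKM under vehicle and the phosphatase scaffold Ppp2r1a at 161 ± 12.0 FPKM under dexamethasone and 154 ± 10.2 FPKM under vehicle. All 21 nuclear partners were tested, 0 were called and the median was -0.10. Cbx3, a chromatin protein, averaged 133 ± 20.2 FPKM under dexamethasone and 129 ± 4.50 FPKM under vehicle, and Aes, a Groucho family corepressor, averaged 134 ± 8.43 FPKM under dexamethasone and 128 ± 8.11 FPKM under vehicle.

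Among 28 genes known as canonical Wnt targets 19 were tested. None was called, 15 had a negative estimate, the median was -0.27, and 9 had an unadjusted p under 0.05, all of them lower under dexamethasone, against 13.6% of all tested loci. These counts are descriptions only. Plaur, among the 9, and Mycn averaged 0.929 and 0.763 FPKM under dexamethasone and 1.88 and 1.54 FPKM under vehicle. Both were thus tested only through the group in which they were high. Apcdd1, also among the 9, is counted among the surface modulators too. Ccnd1, the cyclin of entry into the cell cycle, averaged 417 ± 91.0 FPKM under dexamethasone and 486 ± 122 FPKM under vehicle, and the progenitor factor gene Sox4 averaged 90.7 ± 7.69 FPKM under dexamethasone and 87.9 ± 18.3 FPKM under vehicle. Ccnd1 and Sox4 are named as the 2 most abundant targets, and neither was among the 9. Many of these targets respond to other signals too, and their estimates ranged from -0.76 to 0.13. Of 32 planar polarity and non-canonical genes 29 were tested, at 30 loci, 0 were called and the median was -0.07. The GTPase genes Rac1 and Rhoa led that list, Rac1 at 202 ± 11.3 FPKM under dexamethasone and 213 ± 17.9 FPKM under vehicle and Rhoa at 101 ± 10.5 FPKM under dexamethasone and 109.7 ± 9.15 FPKM under vehicle.

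**Figure D4:**
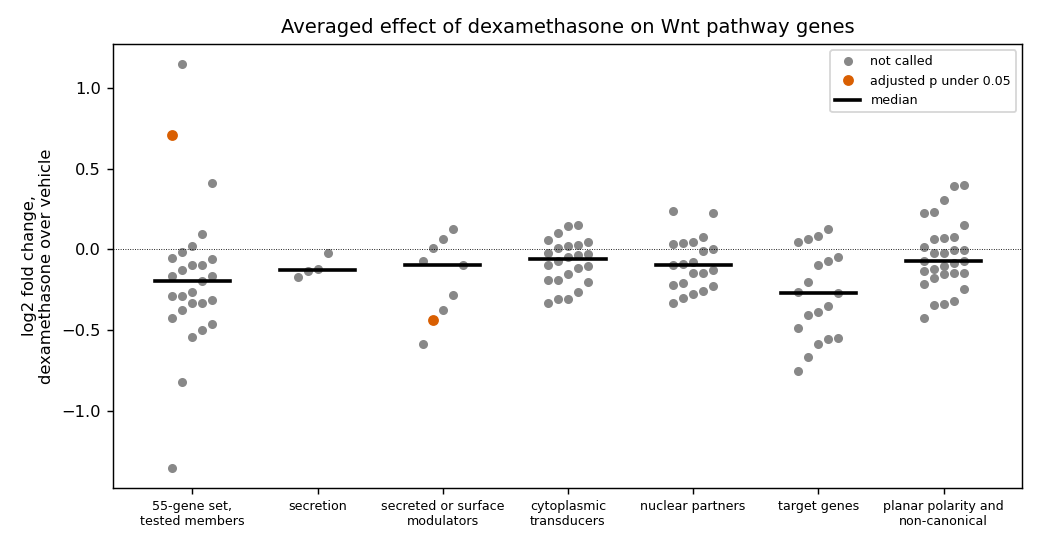
Log2 fold change of the averaged effect, dexamethasone over vehicle, on the log2(FPKM + 1) scale, 1 point per tested locus, for the 27 tested members and for 6 further lists of pathway genes, with the median of each list as a line and called genes in orange. Fzd10 and Ndp are the 2 called genes, and the medians lie between -0.27 and -0.06.

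Markers of the cells in the cultures were read beside these values, from lists made with earlier results of these data known. Of 12 neural stem and radial glia markers 2 were called, both lower, against 1.53% of all tested loci called in either direction. Their median log2 fold change was -0.13, with 9 negative and estimates from -0.64 to 0.08. Those called were Msi1, an RNA-binding protein of progenitors, and Nr2e1, the orphan receptor that keeps neural stem cells dividing. Msi1 averaged 16.5 ± 2.54 FPKM under dexamethasone and 26.2 ± 3.43 FPKM under vehicle (SD, n = 6 each), with a log2 fold change of -0.64 (adjusted p = 0.0151). Nr2e1 averaged 3.85 ± 0.973 FPKM under dexamethasone and 6.17 ± 0.975 FPKM under vehicle, with a log2 fold change of -0.57 (adjusted p = 0.0475). Both are named here because they passed. The Msi1 call held in 20 of 22 alternatives and ended without the 2 libraries rich in unnamed FPKM (adjusted p = 0.0997) and without both male libraries with Xist signal (0.0941), while that of Nr2e1 held in 7 of 22, with adjusted p up to 0.237, and was lost without 10 of the 12 single libraries. The most abundant marker, Fabp7, had a log2 fold change of 0.02, and Sox2, a defining factor of neural stem cells, averaged 89.8 ± 5.35 FPKM under dexamethasone and 122 ± 20.6 FPKM under vehicle (log2 fold change -0.42, adjusted p = 0.0915). The summed level of the 12 markers was 5999 to 6784 FPKM in male dexamethasone libraries against 6504 to 7226 FPKM in male vehicle libraries, and 5890 to 7618 FPKM in female dexamethasone libraries against 6148 to 7513 FPKM in female vehicle libraries. Fabp7 and Vim carried most of that sum, and the other 10 markers summed to 637 to 809.7 FPKM in male dexamethasone libraries against 737 to 861 FPKM in male vehicle libraries, and to 765 to 881 FPKM in female dexamethasone libraries against 805 to 1043 FPKM in female vehicle libraries. The 8 astrocytic markers summed to 521 to 1539 FPKM in male dexamethasone libraries against 355 to 919 FPKM in male vehicle libraries, and to 842 to 1629 FPKM in female dexamethasone libraries against 615 to 1877 FPKM in female vehicle libraries, with Apoe and Glul carrying most of it. The 6 without them summed to 60.3 to 252 FPKM in male dexamethasone libraries against 59.7 to 189.6 FPKM in male vehicle libraries, and to 119 to 231 FPKM in female dexamethasone libraries against 125 to 200.4 FPKM in female vehicle libraries. These ranges overlap in both sexes, and their part in the values of the Wnt genes was not tested. The summed microglial markers stayed below 1 FPKM in every library.

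The promoter windows were searched for the letters AGAACA, the unit that the glucocorticoid receptor recognises, and CTTTGA, the core of the TCF/LEF motif, on both strands. Windows were at hand for 16 of the 27 tested members, and the other tested members could not be searched. AGAACA was present in 19.0% of all windows and in 8 of 45 windows of members. It was in 3 of 19 windows of tested members, those of Axin2, Fzd4 and Tcf7l2. AGAACA followed by any 3 bases and TGTTCT, the paired arrangement, was in 3 of 32851 windows and in 0 windows of members. CTTTGA was present in 16.0% of all windows, in 6 of 45 windows of members and in 2 of 19 windows of tested members, those of Fzd1 and Gsk3b. The matches in Axin2, chr11:108920185-108920214 on the plus strand, and Fzd4, chr7:89404369-89404398 on the plus strand, are shown with AGAACA in capitals as examples, 1 for a feedback inhibitor and 1 for a receptor.
Axin2: gaactccggccgAGAACAccccggggccgc
Fzd4: gctggggcggtgAGAACAgcgcggcgtaga
None of the 3 tested members with AGAACA was called in any comparison. Their averaged log2 fold changes were -0.26 for Axin2, -0.12 for Fzd4 and -0.82 for Tcf7l2. The windows of Fzd10, Wnt7a and Wnt3 held neither motif. These matches describe letters in short windows and no binding was measured.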

How the data were processed

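FPKM values deposited by the authors for 12 stranded total RNA libraries, 1 column each, were used. TopHat2 2.0.9, Cufflinks 2.2.1, Cuffdiff 2.2.1 and GRCm38 are named in the submitters' processing notes. The sources used here do not give the annotation, strand option or library scaling. Overlapping genes are therefore uncertain: Cuffdiff loci can join neighbours, and 22 members share theirs with another annotated gene. Genes were placed on GRCm38 by their Ensembl identifiers in GENCODE M21, with positions counted from 1.

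The 14931 loci averaging 1 FPKM or more were transformed to log2(FPKM + 1) and tested in limma 3.58.1 (R 4.3.3), with 1 mean per group over all 12 libraries, eBayes with a trend, two-sided tests and Benjamini-Hochberg adjustment over all tested loci. The 5 comparisons were the effect of dexamethasone averaged over the sexes, in males and in females, the interaction, and female minus male under vehicle. Fold changes on this scale understate the change of low genes. FPKM are not counts, so no count test was run and no counting interval is given. The code was tested on simulated data.

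The members and gene lists were chosen with earlier results of these data known. Values in every library are given for members called in any comparison under either model, the 12 with the smallest p of the averaged effect and the most abundant member of each role. From the lists of other pathway genes, called genes and the 2 most abundant are named. Alternatives were other pseudocounts, filters, scalings, a robust fit, a replicate term, fits on the compared groups alone and leaving out each library. Leaving out together the 2 libraries richest in unnamed FPKM, or the 2 male libraries with Xist signal, was added after seeing the data.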

Additional observations from a re-analysis of the deposited data

How the results depend on the processing

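The Fzd10 averaged effect was called in 19 of 22 alternatives, with log2 fold changes of 0.61 to 0.79 and adjusted p of 0.00415 to 0.0913. The number of members called in the averaged effect was 0 to 1 when single libraries were left out, with 0 without male vehicle library 2, and 0 without the 2 libraries richest in unnamed FPKM or the 2 male libraries with Xist signal. For the female effect it was 0 to 1, with 1 (Fzd10, adjusted p = 0.0446) without female vehicle library 3, and 1 under quantile normalization (Fzd10, adjusted p = 0.0396). Signs turned for Ctnnb1, at -0.15 under quantile normalization and -0.0172 to 0.0531 over the libraries left out, and for Sfrp2, at 0.15 without the 2 libraries richest in unnamed FPKM and -0.251 to 0.139 over those left out. Of the averaged estimates of the 27 members, 19 to 23 were negative over single libraries left out, with 19 without male vehicle library 3. Of all single-gene values under alternatives, 792 kept their direction and side of the threshold, 11 passed it newly, 26 no longer passed and 6 turned sign. Each alternative that leaves out libraries also has fewer samples, and absolute depth is unknown, so low members are limited by an error that cannot be stated.

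The labels do not say that equal replicate numbers mark a shared culture. Deviations from group means correlated at 0.0819 to 0.167 between the 6 pairs of same-numbered dexamethasone and vehicle libraries of a sex, and at -0.147 to 0.0338 between the 12 other pairs. Not every pair passed 0.1, so the main fit did not pair libraries by number. Yet each library correlated best with its own number. Xist signal was shared by male dexamethasone library 2 and male vehicle library 2, and the highest Dkk3 values by the female libraries numbered 2. In the submitters' order of samples, each dexamethasone sample is followed by the vehicle sample of its sex and number. That order does not say that they shared a culture, and the other hints come from the data. If equal numbers do mark shared cultures, the main fit may overstate the standard errors. With the replicate number as a block, 8 members were called in the averaged effect, Fzd10, Wnt3 and Fzd1 higher and Wnt7a, Wnt7b, Fzd9, Wnt5a and Apc lower, where 804 loci were called in all instead of 229. With the replicate block 1 member was called in males, Wnt7b (adjusted p = 0.0440), and 2 in females, Fzd10 and Fzd9. The share of all tested loci called under that block was 5.38% for the averaged effect, 0.991% in males and 1.25% in females.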
